A study of Mus musculus with 4 samples.

Results

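The ERVL-MaLR retrotransposons were examined in mouse embryonic stem cells (ESCs) kept in lactate. Members were all rows of the table of raw read counts whose name, written as name, family and class, gives the family as ERVL-MaLR. There were 108 such rows among 1153 rows of repeat families and 56488 rows in all. By the start of their names, 20 rows were MT, 29 ORR1 and 58 MLT1, and 1 further row, MLT-int, belonged to none of these groups. No row was named MST or THE1. A row sums the reads of all copies of a subfamily across the genome, so the table gives no position, and transcripts that begin in an LTR cannot be told apart from reads of host genes that carry a copy.

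RNA-seq was performed on AB2.2, a mouse ESC line, grown on feeders of mouse embryonic fibroblasts (MEFs) in medium with the inhibitors CHIR99021 (3 μM) and PD0325901 (1 μM), leukemia inhibitory factor at 1000 U/mL, and 15% serum from fetal calves. There were 2 control libraries and 2 libraries of cells that received 50 mM lactate for 24 h. No genotype is given beyond the line, all libraries come from this 1 line, and the labels do not say whether replicates were separate cultures, so p-values measure only the spread between these libraries. The question was how lactate supplementation changed the transcriptome of mouse ESCs.

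ERVL-MaLR elements (mammalian apparent LTR retrotransposons) are nonautonomous, which means that their internal part codes for no reverse transcriptase and that they relied on the enzymes of related viruses of the ERVL class to copy themselves. A complete element has a long terminal repeat (LTR), which carries the promoter, at each end of the internal part, and most copies are solitary LTRs left by recombination. MT and ORR1 families are found in rodents, while MLT1 families are older and shared with other mammals, and within each group the first letters of the alphabet name the younger subfamilies. MT LTRs serve as promoters of many transcripts in mouse oocytes, among them the oocyte form of Dicer1, and ORR1 transcripts are also found in the oocyte and the cleavage embryo.

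Gene rows held between 18067562 and 19077885 reads per library and repeat rows between 7.36% and 9.41% of all reads. ERVL-MaLR rows held 135231 and 135687 reads in control replicates 1 and 2, and 155138 and 149252 reads in lactate replicates 1 and 2. They made up 7.82% to 8.97% of the repeat reads. Libraries were scaled on gene counts with TMM factors, and levels are given as CPM, counts per 1000000 gene counts after this scaling. On this scale all repeats together stood at 99861 and 79709 in the control and 103429 and 84183 CPM in the lactate libraries. Replicate 1 was the higher one in both groups, and it also had the larger share of mitochondrial reads among gene reads, 5.48% against 2.43% in the control and 5.72% against 2.82% in the lactate libraries. The part of this difference in the results was not tested.

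Summed over all members, ERVL-MaLR RNA was 7473 ± 472 CPM in control and 7943 ± 551 CPM in lactate libraries (SD, n = 2), a ratio of 1.06. The 4 libraries held 7807 and 7140 CPM in the control and 8332 and 7553 CPM with lactate. Lactate replicate 2 lay below control replicate 1, so the groups overlapped. With 2 libraries against 2, a two-sided exact permutation test cannot give a p below 0.33, and no test was made of the sum. Among the 3 groups, the MLT1 sum did not overlap, with 822 and 766 CPM in the control and 926 and 862 CPM in the lactate libraries, a ratio of 1.13. The MT sum was 3366 ± 127 in control and 3509 ± 194 CPM with lactate, and the ORR1 sum 3307 ± 305 and 3533 ± 311 CPM (SD, n = 2). Both overlapped between the groups.

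**Figure D1:**
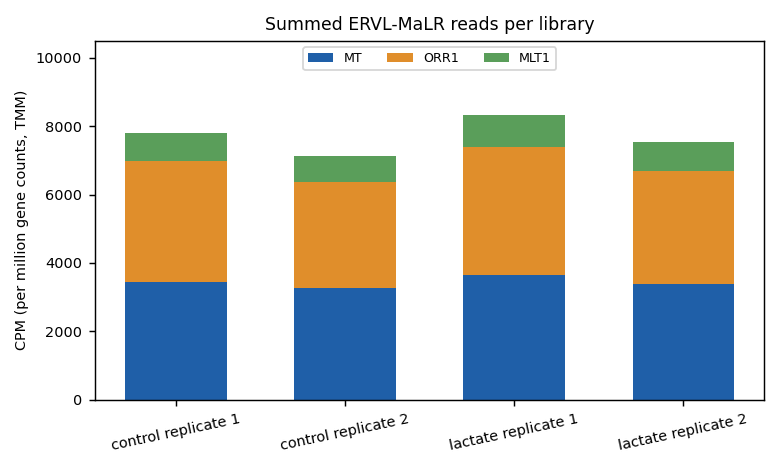
Bars give the summed CPM (counts scaled on gene counts) of the MT, ORR1 and MLT1 rows in each of the 4 libraries. MLT-int, with 6.28 to 7.51 CPM per library, is not drawn. With it the totals lie between 7140 and 8332 CPM, and within each group replicate 1 is above replicate 2.

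Reads were concentrated in few subfamilies. The 10 rows with the most reads, MTD, MTA_Mm-int, MTC, MTA_Mm, ORR1D1, ORR1B1, ORR1A2, ORR1F, ORR1E and MTE2a, held 48.3% of all ERVL-MaLR reads, and MTD alone held 9.84%. These shares depend on copy number and length, which the tables do not give, so they are no levels per copy. Of the 108 rows, 90 passed edgeR's filter on low counts. The other 18 were all internal rows, with at most 8 reads in any library and 114 reads in total. Among them 7 had 0 reads in every library, 8 had a larger total with lactate, 2 had a larger total in the control and 1 had equal numbers.

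Lactate was compared with control by edgeR's quasi-likelihood test in a fit over all 19593 genes and repeat families that passed the filter, with Benjamini-Hochberg adjustment over all of them. At an adjusted p-value under 0.05, no ERVL-MaLR family was called, higher or lower, while 0.847% of all features (0.48% higher, 0.367% lower, and 0.796% with an added 2-fold limit) and none of the 932 repeat families tested were called. The smallest adjusted p-value among the 90 families was 0.168 (edgeR). Without adjustment, 2 families were higher and 1 was lower at p under 0.05, which is 3.33% of the families against 22.2% of all features (11.4% higher, 10.8% lower) and 6.33% of the repeat families. DESeq2 called none as well, against 4.85% of the features and 1.42% of the repeat families to which it gave an adjusted p-value. It gave no ERVL-MaLR family an unadjusted p under 0.05, against 14.8% of all features and 2.79% of the repeat families. A p-value that misses the threshold does not show that a family was the same in both groups, but the size of a difference was bounded. For 84 of the 90 families, the 95% interval of the fitted change lay inside a 2-fold change in either direction, and the other 6 were MLT1 internal rows with few reads. The interval lay inside these limits for 12555 of the 19593 features and 682 of the 932 repeat families.

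The fitted log2 fold changes (log2FC, lactate over control) ran from −0.60 to 0.79 with a median of 0.13, and 69 of the 90 families (76.7%) had a value above 0. Over all 932 repeat families the median was 0.14 with 76.1% above 0, and over the 18661 genes it was 0.01. Lactate values without overlap above the control were seen in 32 families, 35.6% of those tested, against 27.1% of all features and 27.8% of the repeat families. Values without overlap below the control were seen in 8 families, 8.89%, against 24.9% of all features and 6.01% of the repeat families. The median depended on the libraries and the scaling. It was −0.013 without lactate replicate 1 and 0.025 without control replicate 2, and −0.0043 when the libraries were scaled on the repeat families alone.

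The MT group had 14 of its 20 families above 0, with a median log2FC of 0.08. MTA_Mm, the youngest MT subfamily, had 440 and 417 CPM in control cells and 436 and 407 CPM in the lactate libraries for its LTR row. Its groups overlapped, with a log2FC of −0.03 ± 0.14 SE (edgeR, adjusted p 0.937). The internal row MTA_Mm-int had 539 and 554 CPM in control cells and 499 and 526 CPM with lactate. Here both lactate libraries were below both control libraries, by a log2FC of −0.09 ± 0.14 SE (edgeR, adjusted p 0.746). The 2 MTA_Mm rows, unlike most other MT rows, were both under 0, although MTA_Mm was at 0.041 when libraries were scaled on the totals of gene rows alone.

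MTC, the subfamily whose LTR drives the oocyte form of Dicer1, overlapped between the groups, with 438 and 406 CPM in control cells and 471 and 424 CPM in the lactate libraries. Dicer1, the RNase that cuts precursors of small RNAs, had a log2FC of 0.11 (standard error 0.13). Its level was 168 and 161 CPM in control cells and 186 and 169 CPM with lactate, without overlap, as for 27.1% of all features. The row counts the whole gene, so the oocyte form is not measured apart. MTD, the row with the most reads, had 744.7 and 704 CPM in control cells and 838 and 744.9 CPM with lactate. These 2 groups touched, with lactate replicate 2 only just above control replicate 1, and the log2FC was 0.13 ± 0.15 SE (edgeR, adjusted p 0.668). Its log2FC was 0.013 without lactate replicate 1 and 0.21 without lactate replicate 2. Of the 9 MTE rows, the oldest of the group, 8 were above 0, between 0.0060 and 0.21, and MTEb-int was at −0.09. MTE2a, the MTE row with the most reads, had a log2FC of 0.08, with overlapping groups. MTB_Mm-int stood at the other end with −0.26, on 182 and 159 reads in control cells and 178 and 123 reads in the lactate libraries, a difference no larger than its standard error of 0.26. With scaling on the repeat families alone, MTC, MTD and MTE2a were at −0.049, −0.0094 and −0.052.

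Of the 28 ORR1 families tested, 23 were above 0, with a median log2FC of 0.13. The exceptions were ORR1C1, at −0.0018, ORR1D-int, at −0.08, and 3 rows of the youngest subfamilies, ORR1A0 and ORR1A1. ORR1A0-int had 216 and 189 CPM in control cells and 172 and 160 CPM in the lactate libraries. Both lactate libraries were lower, by a log2FC of −0.29 ± 0.14 SE (edgeR, adjusted p 0.289). The LTR row ORR1A0 had 88.4 and 78.5 CPM in control cells and 66.7 and 73.7 CPM with lactate. It did not overlap either, at −0.25 ± 0.14 SE (edgeR, adjusted p 0.348). For ORR1A1, the 2 rows differed in sign. ORR1A1-int had 63.2 and 55.4 CPM in control cells and 51.6 and 52.7 CPM with lactate, a log2FC of −0.19. The LTR row ORR1A1 had 58.7 and 48.1 CPM in control cells and 64.9 and 54.3 CPM with lactate, with overlap and a log2FC of 0.16.

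The ORR1E rows pointed upward without overlap. ORR1E had 238 and 233 CPM in control cells and 282 and 257 CPM with lactate, a log2FC of 0.19 ± 0.13 SE (edgeR, adjusted p 0.448). ORR1E-int had 35.9 and 33.8 CPM in control cells and 48.3 and 40.6 CPM with lactate, and ORR1F-int, with 6.75 and 7.42 against 8.86 and 9.46 CPM, had the highest value of the ORR1 group at 0.37. These 2 internal rows were named after their values were seen. ORR1F, ORR1B1, ORR1A2 and ORR1D1 had log2FC values of 0.13, 0.17, 0.06 and 0.06, and of these only ORR1F did not overlap between the groups. With scaling on the repeat families alone, ORR1F, ORR1A2 and ORR1D1 were at −0.0035, −0.076 and −0.071.

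**Figure D2:**
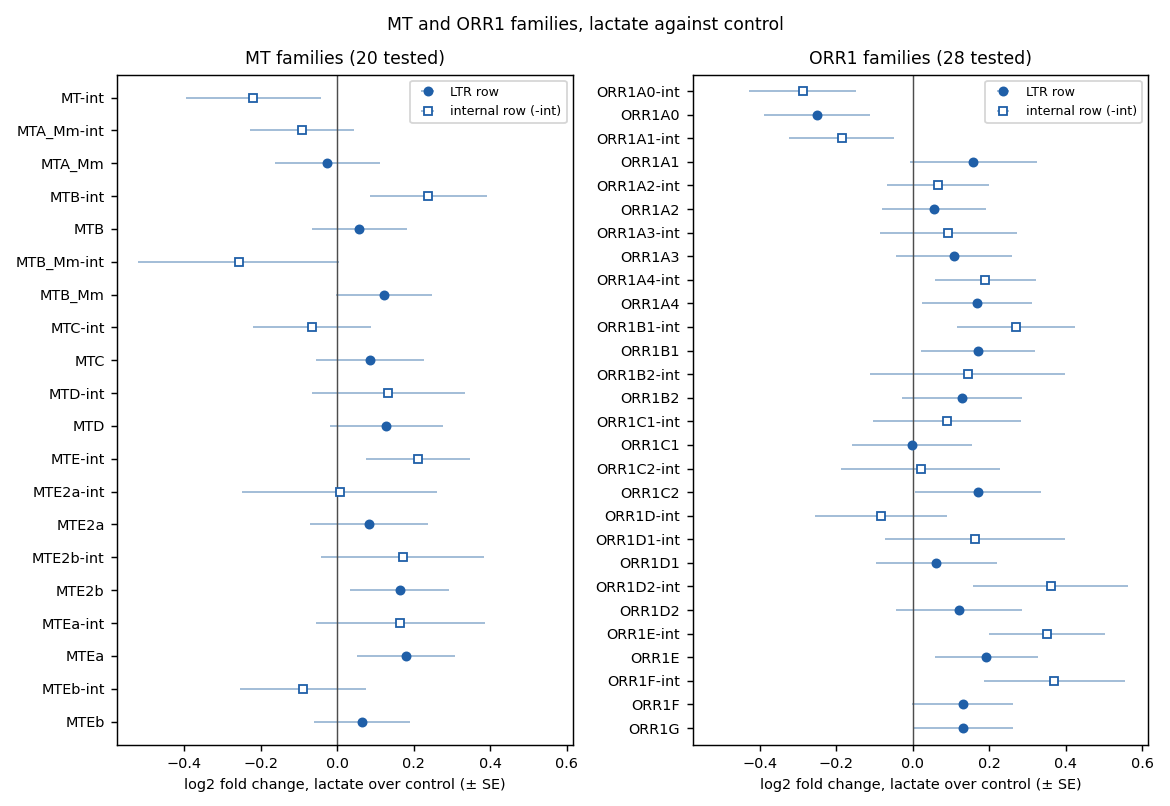
Fitted log2FC of lactate over control for the 20 MT and 28 ORR1 families tested (filled circles for LTR rows, open squares for internal rows, bars for the standard error), in alphabetical order of the names. Values lie between −0.29 and 0.37, the rows ORR1A0-int and ORR1A0 at −0.29 and −0.25 are the lowest of the ORR1 rows, and ORR1F-int at 0.37 is the highest.

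Ratios of reads within a library do not depend on the scaling, and those that follow were chosen after the values were seen. For every 100 reads of ORR1E and ORR1F rows there were 57.6 and 52.4 reads of ORR1A0 rows in control cells and 38.9 and 41.5 in the lactate libraries. For every 100 reads of MTE rows there were 115 and 122 reads of MTA_Mm rows in control cells and 99.0 and 109 in the lactate libraries. In both ratios the youngest subfamily had a smaller part in both lactate libraries than in either control library. Summed by subfamily, ORR1A0 had a lactate over control ratio of 0.826, ORR1A1 0.991, ORR1A2 1.04, ORR1A3 1.07 and ORR1A4 1.13. The sums of ORR1B, ORR1C, ORR1D, ORR1E, ORR1F and ORR1G had ratios of 1.14, 1.07, 1.07, 1.16, 1.10 and 1.09. For MTA, MTB, MTC, MTD and MTE they were 0.957, 1.07, 1.04, 1.09 and 1.09. Of these 16 sums, MTA and ORR1A0 were lower in both lactate libraries, and MTB, MTE, ORR1A4, ORR1E, ORR1F and ORR1G were higher in both. Among single features, 24.9% were lower in both and 27.1% higher, and among repeat families 6.01% and 27.8%.

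Of the 41 MLT1 families tested, 32 were above 0, with a median log2FC of 0.17. LTR rows did so in 24 of 29, and in 15 of the 29 both lactate libraries were above both control libraries (51.7%, against 27.1% of all features). The same share was 66.7% of the MT LTR rows, 21.4% of the ORR1 LTR rows and 27.8% of all repeat families. Over LTR and internal rows together it was 48.9% in ERVL, 42.3% in ERV1 and 19.2% in ERVK. MLT1H1 had 5.31 and 5.58 CPM in control cells and 7.95 and 7.89 CPM in the lactate libraries. The groups did not overlap. Its log2FC of 0.54 had a standard error of 0.19, a p-value of 0.0265 without adjustment and an adjusted p-value of 0.168 (edgeR). MLT1I had 11.8 and 10.7 CPM in control cells and 14.8 and 15.3 CPM with lactate, a log2FC of 0.42 ± 0.17 SE (edgeR, adjusted p 0.208). MLT1J2 pointed the other way without overlap, with 14.9 and 13.6 CPM in control cells and 10.8 and 12.8 CPM with lactate, and a log2FC of −0.27.

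Internal MLT1 rows had few reads and gave the extreme values of the whole family. MLT1D-int had 19 and 7 reads in control cells and 28 and 20 in the lactate libraries, a log2FC of 0.79 with a standard error of 0.52. MLT1A-int, with 26 and 11 reads against 30 and 28, had 0.56 with a standard error of 0.45, and both overlapped between the groups. MLT1A0-int did not overlap, with 46 and 32 reads in control cells and 51 and 59 in the lactate libraries and a log2FC of 0.41 (standard error 0.29). These 3 values moved with the control library that was left out. Without control replicate 2, MLT1D-int, MLT1A-int and MLT1A0-int had log2FC values of 0.19, 0.0057 and 0.10, and without control replicate 1 they had 1.73, 1.36 and 0.75. MLT1F2-int was the lowest of all rows, with 47 and 55 reads in control cells and 33 and 38 in the lactate libraries. Its log2FC was −0.60 ± 0.24 SE, with 0.0450 as the p-value without adjustment and an edgeR adjusted p of 0.214. The LTR row of the same name, MLT1F2, had 336 and 436 reads against 506 and 519, a log2FC of 0.34, and was named after its value was seen.

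**Figure D3:**
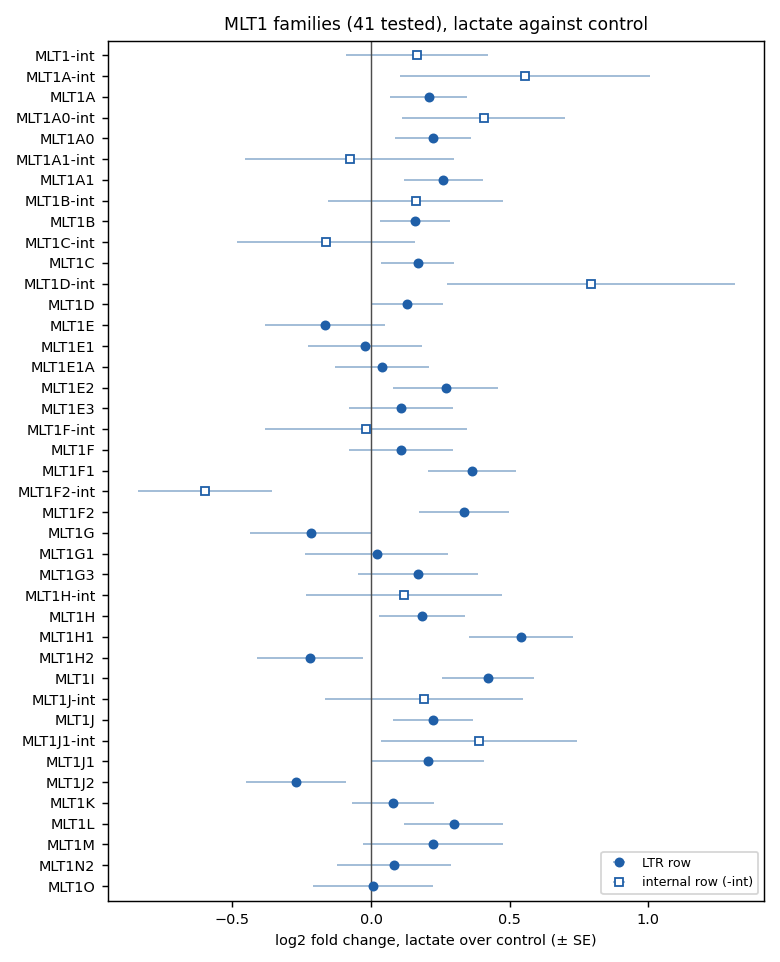
Fitted log2FC of lactate over control for the 41 MLT1 families tested (filled circles for LTR rows, open squares for internal rows, bars for the standard error). LTR rows lie between −0.27 and 0.54, and the internal rows, on fewer reads, between −0.60 and 0.79 with longer bars.

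LTR rows and internal rows were compared because reads across an internal part come from copies that kept more than a solitary LTR. The median log2FC was 0.13 over the 52 LTR rows and 0.13 over the 38 internal rows tested, with 44 and 25 of them above 0. In 33 subfamilies both rows were tested, and the internal row had the lower value in 16 of them, with a median difference of 0.0003 on the log2 scale. Internal reads were 27.0% and 27.0% of MT reads in control cells and 25.1% and 25.9% in the lactate libraries. In the ORR1 group they were 29.9% and 29.4% in control cells and 29.1% and 28.8% with lactate. Both shares were lower in both lactate libraries. They pool subfamilies with unlike internal shares, so they also change with the mix of subfamilies. Within MTA_Mm the internal share was 55.1% and 57.0% in control cells and 53.4% and 56.4% with lactate. Within ORR1A0 it was 71.0% and 70.7% in control cells and 72.1% and 68.5% with lactate, and both overlapped. In MLT1 the share was 4.24% and 3.02% in control cells and 3.78% and 3.30% with lactate and overlapped.

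MERVL belongs to the ERVL family, which is counted apart from ERVL-MaLR, and is the retrovirus whose transcripts mark two-cell embryos. Its internal row, MERVL-int, had 568 and 588 CPM in control cells and 1054 and 1165 CPM in the lactate libraries. The log2FC was 0.94 (standard error 0.15), with an adjusted p-value of 0.0535 in edgeR. MT2_Mm, the LTR of MERVL, had 106 and 106 CPM in control cells and 171 and 180 CPM with lactate, a log2FC of 0.73 with an adjusted p-value of 0.0573 (edgeR). Neither was called by edgeR, while DESeq2 gave them adjusted p-values of 0.000151 and 0.00924. The edgeR result lay close to the threshold. MERVL-int was called with scaling on the totals of gene rows alone (adjusted p 0.0489), with no filter on low counts (0.00121), without lactate replicate 1 (0.00937) and without lactate replicate 2 (0.0236). MT2_Mm was called with no filter (edgeR, adjusted p 0.0145). For every 100 reads of MTA_Mm-int there were 105 and 106 reads of MERVL-int in control cells and 211 and 222 in the lactate libraries, so within each library MERVL-int stood higher against the youngest MT element with lactate. This ratio was not tested.

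**Figure D4:**
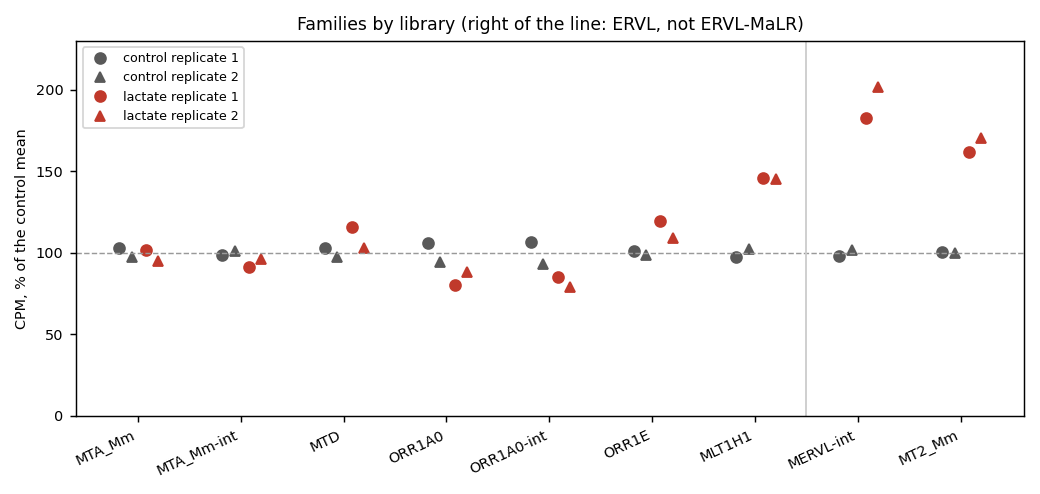
CPM of 7 ERVL-MaLR rows and of MERVL-int and MT2_Mm of the ERVL family in each library, as a percentage of the mean of the 2 control libraries (gray for control, red for lactate, circles for replicate 1, triangles for replicate 2). The lactate points of ORR1A0 and ORR1A0-int lie below the control points and those of MLT1H1 and ORR1E above them, and the lactate points of the ERVL family lie higher than any ERVL-MaLR row shown.

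Other families of repeats had medians on both sides of that of ERVL-MaLR. The median log2FC was 0.21 over the 90 ERVL, 0.21 over the 97 ERV1, 0.08 over the 266 ERVK and 0.16 over the 127 L1 families tested. It was 0.08 over 16 Alu (B1) and 0.14 over 5 B2 families of short interspersed elements. The range was wider in ERVL, ERVK, ERV1 and L1, where single families reached 1.62, 1.30, 1.37 and 1.07, while no ERVL-MaLR family passed 0.79. No family of these groups was called by edgeR. At an unadjusted p under 0.05 (edgeR), 8 ERVL, 14 ERV1, 14 ERVK and 2 L1 families were higher, and 5 ERVK and 2 L1 families were lower. Over all features the shares were 11.4% higher and 10.8% lower. No difference between these groups was tested.

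In ESCs, LTR retrotransposons are silenced by zinc finger proteins that bring Trim28 and the histone methyltransferase Setdb1, with the DNA methyltransferase Dnmt1 and its partner Uhrf1 among further factors. All 38 genes of a list of such factors passed the filter, and none was called by edgeR, while 0.847% of all features were. Without adjustment 1 was higher and 9 were lower at p under 0.05, against 11.4% of all features higher and 10.8% lower, and the median log2FC was −0.10. edgeR called 3 genes lower with no filter on low counts, a fit for which the share of all features called was not counted. Trim28 had 1210 and 1449 CPM in control cells and 943 and 1024 CPM in the lactate libraries, or an FPKM of 956 and 985 against 759 and 633. Its log2FC was −0.44 ± 0.16 SE (edgeR, adjusted p 0.193).

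Dnmt1 had 505 and 520 CPM in control cells and 395 and 352 CPM with lactate, a log2FC of −0.46 with an adjusted p-value of 0.139 (edgeR). Setdb1 had 282 and 265 against 227 and 218 CPM, which gave −0.30 with an adjusted p-value of 0.251 (edgeR). For each of the 3 genes both lactate libraries were below both control libraries, as they were for 24.9% of all features. The list did not move as one, with 14 genes above 0 and 24 below. Rif1 (log2FC 0.47), Tasor, Pphln1, Zfp932, Suv39h1 and Suv39h2 were higher in both lactate libraries, as were 27.1% of all features. The other genes of the list lower in both were Ehmt1, Ehmt2, Kdm1a, Rcor1, Hdac1, Cbx5, Uhrf1, Dnmt3b, Chaf1a, Chaf1b, Daxx and Pias4. DESeq2 called 1 gene of the list, against 4.85% of all features. It was Ehmt2, a histone H3K9 methyltransferase, with an adjusted p-value of 0.00617 (0.0711 in edgeR, log2FC −0.84), and this gene was named after its value was seen.

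Genes of the oocyte program, in which MT elements are active, ranged from no reads to clear expression. Of 31 genes found, 11 passed the filter, 8 had 0 reads in every library, and none was called by edgeR, against 0.847% of all features. At an unadjusted p under 0.05 (edgeR) 1 was higher and 1 was lower, against 11.4% of all features higher and 10.8% lower. DESeq2 called none, against 4.85% of all features. Zp2 and Gdf9, genes of the oocyte coat and of an oocyte growth factor, had at most 12 reads in any library. At the other end, Sohlh2, a transcription factor of germ cells, had 1796 to 2129 reads per library, and Ooep, a maternal-effect gene, had 1242 to 1743. Of 21 genes found of a two-cell list that includes the Zscan4 and Usp17l genes, 14 passed the filter. Some did so only through the lactate libraries. Usp17la, for example, had 7 and 7 reads in control cells and 38 and 29 with lactate. The filter thus favors values above 0 in this list. All 14 tested genes were above 0, with a median log2FC of 1.46. edgeR called none of them, and 13 were higher at an unadjusted p under 0.05, against 11.4% of all features. DESeq2 called 6, against 4.85% of all features in either direction. The study drew part of this list from the same libraries, so it is no independent evidence of the direction.

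The ESC label was checked against 10 markers, all of which passed the filter, among them Nanog with 14285 to 18046 reads per library. None was called by edgeR, while 0.847% of all features were. Without adjustment 3 were higher and 1 was lower at p under 0.05, against 11.4% of all features higher and 10.8% lower. All 16 markers of feeder fibroblasts were also detected. Their summed level was 560 and 798 CPM in control cells and 561 and 642 CPM in the lactate libraries, against 5775 to 6980 CPM for the ESC markers. None of the fibroblast markers was called by edgeR. At an unadjusted p under 0.05, 1 was higher and 2 were lower, beside the same shares of all features. DESeq2 called 1, against 4.85% of all features. In bulk RNA, fewer cells of a type and less RNA per cell cannot be told apart, and the part of feeder RNA in the ERVL-MaLR reads was not tested.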

How the data were processed

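RNA-seq libraries of 2 control and 2 lactate samples were analysed. The authors trimmed reads with cutadapt 1.16, mapped them with STAR to the mouse genome (mm10) and deposited raw counts for 55335 genes of GENCODE release M23 and 1153 repeat families. The program that counted the repeat families, its treatment of reads with several matches and its use of strand are not given in the sources used here. Reads of near-identical subfamilies may have been split between rows or lost. The authors also deposited FPKM from RSEM for genes only, which served here for gene symbols and for the level of Trim28.

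Tests were run with edgeR 4.0.16 and, as an alternative, DESeq2 1.42.0 (R 4.3.3). One quasi-likelihood fit (legacy form, no replicate term) covered the 18661 genes and 932 repeat families that passed filterByExpr, with library totals and TMM factors (0.959, 0.996, 1.004 and 1.04) taken from gene rows only and a common biological coefficient of variation of 15.9%. A call needed an adjusted p-value under 0.05. The standard error is the log2 fold change divided by the square root of F, and intervals use its 95% t quantile. The script was tested on simulated data. Replicates of a group differed beyond counting error (over ERVL-MaLR rows, chi-square was 5.46 and 5.34 times its degrees of freedom), and counting precision alone would understate the error.

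Families named were the 10 with the most reads, the 5 highest and the 5 lowest fitted changes, and the rows of MTA_Mm, ORR1A0 and ORR1A1. Genes named were Trim28, Setdb1, Dnmt1, Dicer1 and called list members, and any other gene or family was named after its values were seen. The members and gene lists were chosen with earlier results of these data known. Alternatives were DESeq2, other scalings, other filters, a replicate block, a fit without the legacy form, the added 2-fold limit and each library left out in turn.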

Additional observations from a re-analysis of the deposited data

How the results depend on the processing

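The count of 0 called ERVL-MaLR families in either direction was the same under DESeq2, every other scaling and filter, the fit without the legacy form, the added 2-fold limit and each library left out. The exception was the replicate block, with 25 higher and 4 lower families, 32.2% of those tested, when 44.1% of all 19593 features and 27.1% of the repeat families were called. The labels tie no number to a shared batch or day. Differences of replicate 2 from replicate 1 correlated between control and lactate (r = 0.64 over all features and 0.41 over the 90 families), and summed ERVL-MaLR ratios within equal numbers were 1.07 and 1.06. ORR1A0-int had −0.29 under the block, with an adjusted p-value of 0.0003 (edgeR). The block also called 9 silencing genes higher and 16 lower, with adjusted p-values (edgeR) of 2.22e-06 for Trim28, 1.15e-06 for Dnmt1 and 0.000168 for Setdb1, and called MERVL-int (3.11e-12) and MT2_Mm (2.99e-10).

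The median change, reported as 0.13, was −0.0043 and the log2 ratio of the sums, reported as 0.09, was −0.046 with scaling on repeat families alone, which moved the median of all genes to −0.12. MTD, MTC, ORR1D1, ORR1A2, ORR1F, MTE2a and Dicer1 then reversed to −0.0094, −0.049, −0.071, −0.076, −0.0035, −0.052 and −0.029, by the construction of that scaling. With totals of gene rows alone, MTA_Mm had 0.041. With a library left out in turn the median ran from −0.013 (without lactate replicate 1) to 0.22 and the ratio of sums from −0.012 to 0.15. Ranges that crossed 0 were −0.083 to 0.17 for ORR1D1, −0.021 to 0.10 for ORR1A2, −0.066 to 0.19 for MTE2a, −0.018 to 0.15 for MTC, −0.0045 to 0.29 for ORR1A1, −0.10 to 0.019 for MTA_Mm and −0.63 to 0.017 for MTB_Mm-int, whose cause was not tested. Other values moved by over 1.5 times without a change of sign, with ranges of 0.013 to 0.21 for MTD, 0.053 to 0.26 for ORR1B1, 0.097 to 0.26 for ORR1E, 0.054 to 0.18 for ORR1F, −0.28 to −0.10 for ORR1A1-int, −0.40 to −0.18 for MLT1J2, 0.19 to 1.73 for MLT1D-int, 0.0057 to 1.36 for MLT1A-int, 0.10 to 0.75 for MLT1A0-int and 0.0095 to 0.17 for Dicer1. ORR1A0-int and ORR1A0 were below 0 in every alternative. Rows with few reads are limited by depth.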

Other observations

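The order of subfamily letters was set against the fitted change as a description, chosen after the values were seen and with no test. Across the 19 lettered MT families the Spearman correlation of the letter, A first, with the log2 fold change was 0.40, across the 28 ORR1 families 0.38 and across the 40 lettered MLT1 families −0.08. These families share the same 4 libraries and are not independent. Over the 4 possible ratios of 1 lactate to 1 control library, the correlation lay between 0.06 and 0.46 in MT, 0.15 and 0.33 in ORR1, and −0.15 and 0.09 in MLT1. Letters also followed read number weakly, with a Spearman correlation of −0.26 in MT and −0.18 in ORR1.

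The internal share of reads in single subfamilies was lower in both lactate libraries in 7 of 33 subfamilies and higher in both in 4. Over all features no such share exists, so these counts have no background to be set against, and they were not tested. In ORR1A1 it was 51.8% and 53.5% in the control and 44.3% and 49.3% with lactate. In ORR1E it was 13.07% and 12.67% in the control and 14.6% and 13.7% with lactate.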
